A study of Mus musculus with 6 samples.

Results

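Levels of 33 genes of the oligodendrocyte lineage and of myelin were examined in ribosome-bound RNA from the medial amygdala (MeA) of female mice. The genes were chosen by symbol from the deposited table of log2 CPM, which holds 13886 genes, and 32 of the 33 were listed there. Ninj2 was the member not listed. Oligodendrocyte precursors divide and spread through the brain, and some of them leave the cycle, switch on a myelin gene programme under OLIG, SOX and MYRF transcription factors, and wrap axons with a lipid-rich sheath. Pdgfra, Cspg4 and Vcan mark precursors, Gpr17 and Bcas1 mark cells about to form myelin, and Mbp, Mobp, Mog, Mag and Cnp are made by cells that do so. Several members are not made by oligodendrocytes alone: pericytes make Cspg4, fibroblasts make Pdgfra, and cells of the meninges and choroid plexus make Ptgds and Trf.

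The libraries came from Kiss1Cre+/Rpl22HA+/+ females, in which Cre driven from Kiss1 adds an HA tag to the ribosomal protein RPL22, so that tagged ribosomes and their RNA can be precipitated (IP). The tag marks cells that have expressed Cre from Kiss1, and whether the RNA of any member came from tagged cells was not tested. Ovaries were removed from every female at 8 weeks, and the females were given estradiol (E2) for 4 days to drive Cre, and then left for 7 days without it. The 3 OVX libraries came from females then given no capsule, and the 3 E2 libraries from females given an E2 capsule for 5 days. Each library was a pool of MeA punches from 4 mice, so the spread between libraries is a spread between pools. Scaled library sizes, rebuilt from the smallest step of the values, ranged from 28.1 to 34.2 M reads. Kiss1, listed as a pair of gene models, was higher with E2 by 1.91 on the log2 scale in the model that passed the test (limma adjusted p = 0.00475). The other model was higher with E2 by 5.05 with a standard error of 1.09 and did not pass (limma adjusted p = 0.0942). Its value in OVX library 1 was -5.82. All 10 neuronal markers were listed, and their CPM summed to between 9521 and 10121 in the 6 libraries.

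Promoter sequence is shown for a few members as a description, and its part in their levels or in the order of the libraries was not tested. Pdgfra was the member whose treatment groups did not overlap. RefSeq windows on GRCm38.p6 were matched for 22 of the 32 listed members, in 32 windows, since some genes have several starts. No window was matched for Bcas1, Car2, Evi2a, Fa2h, Gpr17, Mbp, Myrf, Olig1, Sox10 and Trf. The stretches below run from 250 to 51 bases before the start, 5′ to 3′ on the gene's strand. Capitals mark exact matches on either strand. For SOX factors the letters searched were ACAAAG, with ACAATG as a variant, and the same pair starting with T, which are TCAAAG followed in the search by TCAATG. For MYRF they were CTGGCAC, with CTGGTAC as a variant, and for OLIG2 they were CAGCTG, with CAGATG as a variant. In these stretches no match overlapped another. Pdgfra is shown for that lack of overlap (chr5:75152001-75152200, plus strand), Mobp as the sheath gene with the largest difference (chr9:120149492-120149691, plus strand), and Cnp (chr11:100574689-100574888, plus strand) and Mog (chr17:37023449-37023648, minus strand) as sheath genes with a MYRF match.
Pdgfra: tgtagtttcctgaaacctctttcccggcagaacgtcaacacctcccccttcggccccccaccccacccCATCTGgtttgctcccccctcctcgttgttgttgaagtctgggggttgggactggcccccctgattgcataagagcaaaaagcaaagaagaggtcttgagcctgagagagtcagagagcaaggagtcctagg
Mobp: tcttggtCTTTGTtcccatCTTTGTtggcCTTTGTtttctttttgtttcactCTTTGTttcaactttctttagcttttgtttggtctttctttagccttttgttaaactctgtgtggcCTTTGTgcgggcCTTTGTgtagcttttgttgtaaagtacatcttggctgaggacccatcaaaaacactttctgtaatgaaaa
Cnp: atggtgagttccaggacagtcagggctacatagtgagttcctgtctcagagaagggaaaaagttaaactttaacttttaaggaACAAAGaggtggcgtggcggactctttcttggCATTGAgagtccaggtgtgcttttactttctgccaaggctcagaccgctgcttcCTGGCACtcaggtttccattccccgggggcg
Mog: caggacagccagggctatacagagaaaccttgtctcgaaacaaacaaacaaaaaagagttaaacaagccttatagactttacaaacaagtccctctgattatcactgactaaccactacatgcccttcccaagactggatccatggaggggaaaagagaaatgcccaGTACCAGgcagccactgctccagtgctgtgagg
Mobp held 6 SOX matches, all of them CTTTGT on the strand shown, which is ACAAAG on the other. Cnp held 2 SOX matches and 1 MYRF match, Mog held 1 MYRF match here and 1 SOX match nearer to its start, and Pdgfra held 1 OLIG2 match and no SOX or MYRF match.

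In the full 250 bases before the start, a SOX match was present in 17 of 32 member windows (53.1%), against 29.0% of the windows of all listed genes and 39.4% of all RefSeq windows. A MYRF match was present in 6 member windows (18.8%), against 5.68% of listed and 5.93% of all windows. The 6 windows belonged to Cnp, Hapln2, Lpar1, Mag and Mog. An OLIG2 match was present in 12 member windows (37.5%), against 21.4% and 25.5%. The palindromic estrogen response element was in no member window, against 0.0072% of listed and 0.0639% of all windows. At shares this low, 32 windows cannot tell the members from other genes. These shares are descriptions of letters in short windows, and windows of the same gene are not independent.

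No member passed the test between E2 and OVX. Of the 32 listed members, 0 had a limma adjusted p under 0.05, against 0.288% of all 13886 genes, and 4 of 32 (Pdgfra, Mobp, Cspg4 and Olig1, all higher with E2) had an unadjusted p under 0.05, against 8.56% of all genes. E2 libraries lay above OVX libraries without overlap for 1 of 32 members, Pdgfra, against 6.85% of all genes. They lay below without overlap for 0 of 32, against 6.82%. The E2 mean was the higher for 24 members (75%, against 51.1% of all genes) and the lower for 8. Members shared much of their library order, so these counts are not independent. The median difference was 0.13 on the log2 scale, beside 0.0034 over all genes. It was 0.11 to 0.12 with voom weights, median centring or quantile normalization. A single member's difference had a median standard error of 0.15. With 3 libraries a group, the smallest p open to an exact permutation test of a single gene is 0.1. RNA of these genes in a precipitated, pooled library can change for various reasons. The number of cells of a type and the RNA that each cell holds are among them, and the reasons cannot be told apart here.

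**Figure D1:**
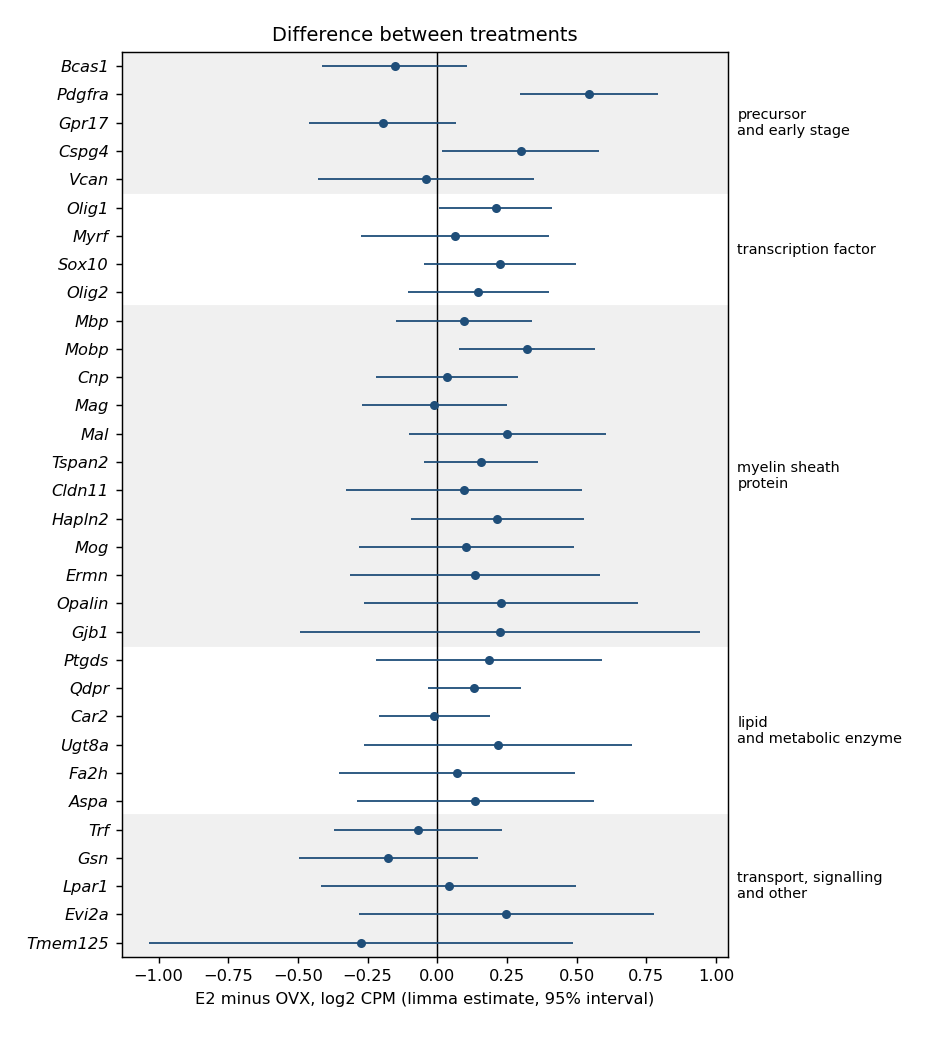
Difference between E2 and OVX (log2 CPM, x axis) for the 32 listed members (y axis), grouped by role; points are limma estimates and lines their 95% intervals. The interval clears zero for Pdgfra, Mobp, Cspg4 and Olig1, and none of the 32 passes after adjustment over 13886 genes.

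Among the genes of precursors and early cells, Pdgfra, the receptor for platelet-derived growth factor A that keeps precursors dividing, had the largest difference of all members. Pdgfra (ENSMUSG00000029231, chr5:75152292-75198215 on GRCm38) was at log2 CPM of 4.91, 5.20 and 4.86 in OVX libraries 1 to 3 and at 5.71, 5.31 and 5.58 in E2 libraries 1 to 3. The lowest E2 library lay 0.11 above the highest OVX library. The difference was 0.54 ± 0.11 (SE), or 1.46-fold with a 95% interval of 1.23 to 1.73, and the limma adjusted p was 0.0838. Without OVX library 2 the adjusted p was 0.0231 and without E2 library 2 it was 0.0434, whereas it lay between 0.142 and 0.321 when any of the other 4 libraries was left out. Cspg4, the NG2 proteoglycan of precursors and pericytes, was at 4.67, 4.62 and 4.39 in OVX and at 5.04, 4.55 and 4.99 in E2 libraries. E2 library 2 fell among the OVX libraries, and the difference of 0.30 ± 0.13 did not pass (limma adjusted p = 0.544).

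The other 3 members of this group had lower means with E2, none past the test, and their difference from Pdgfra was not tested. Bcas1, a marker of cells starting to myelinate, was at 5.64, 5.96 and 5.37 in OVX and at 5.63, 5.47 and 5.42 in E2 libraries, a difference of -0.15 ± 0.12 that ran from -0.30 to -0.0012 with 1 library left out in turn. Gpr17, a receptor of committed precursors, was at 5.10, 5.14 and 4.73 in OVX and at 4.96, 4.62 and 4.80 in E2 libraries, a difference of -0.20 ± 0.12 that ran from -0.33 to -0.11 in the same way. Both sets overlapped, with limma adjusted p-values of 0.800 for Bcas1 and 0.725 for Gpr17. Vcan, a matrix proteoglycan, differed by -0.04 (adjusted p = 0.983, limma). Gpr17 shares 188 exonic bases with Lims2, and with an unstranded kit the reads there cannot be assigned to either gene.

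Pdgfra was also set against Sox10, a factor of all lineage stages, within each library. This ratio was chosen after the values were seen, for a member whose groups did not overlap, and it is a description with no test. Log2 Pdgfra minus log2 Sox10 was 0.42, 0.43 and 0.52 in OVX libraries and 0.76, 0.73 and 0.84 in E2 libraries. Pdgfra minus Cspg4 was 0.25, 0.57 and 0.46 in OVX and 0.67, 0.76 and 0.59 in E2 libraries, where the lowest E2 value lay just above the highest OVX value. Markers of other cells that passed the test were Col1a1, a fibroblast collagen that was higher with E2 by 1.18 ± 0.22 (limma adjusted p = 0.0469), and the globin genes Hba-a1 (1.01 ± 0.16, adjusted p = 0.0124) and Hba-a2 (1.04 ± 0.20, adjusted p = 0.0469) of red cells. Col1a1 was at 2.53, 3.62 and 3.15 in OVX and at 4.25, 4.06 and 4.53 in E2 libraries. It was the 1 gene of 7 listed fibroblast and meningeal markers to pass, Lum being the marker not listed, and the other collagen gene, Col1a2, differed by 0.00086 ± 0.26. The summed CPM of those 7 markers was 69.6, 122.5 and 78.0 in OVX and 112, 73.0 and 96.9 in E2 libraries, and none of them was at 0. Their part in the Pdgfra difference was not tested.

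**Figure D2:**
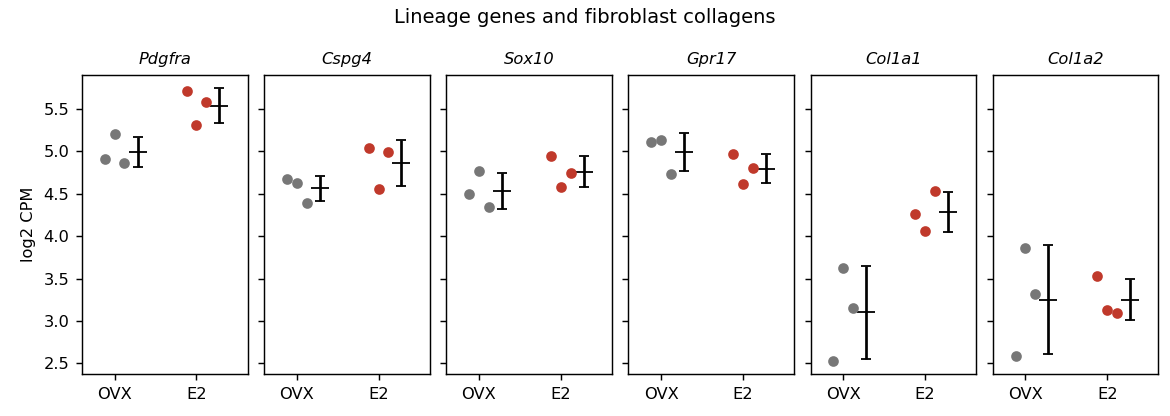
Log2 CPM (y axis) of 4 lineage genes and 2 fibroblast collagens in the 3 OVX (grey) and 3 E2 (red) libraries; the black mark is the group mean and the bar its SD. Pdgfra and Col1a1 do not overlap between groups, and Cspg4, Sox10, Gpr17 and Col1a2 do.

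The 4 transcription factors each had the higher mean with E2, by 0.06 to 0.22, and none passed. Olig1, a basic helix-loop-helix factor of the lineage, was at 5.81, 5.85 and 5.60 in OVX and at 6.09, 5.77 and 6.02 in E2 libraries. E2 library 2 lay within the OVX range, and the difference was 0.21 ± 0.09 (limma adjusted p = 0.563). Myrf, the factor that turns on myelin genes, was at 5.02, 5.10 and 4.59 in OVX and at 5.31, 4.65 and 4.94 in E2 libraries. The Myrf groups overlapped through most of their ranges, with a difference of 0.06 ± 0.16. Olig2, needed to found the lineage, was the steadiest member, with a range of 0.30 over the 6 libraries, and Sox10 ranged over 0.60.

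Of the 12 genes for proteins of the myelin sheath, 11 had the higher mean with E2 and Mag, the adhesion molecule of the inner sheath, the lower by 0.01. Mbp, which holds the cytoplasmic faces of the membrane together, was at 9.51, 9.90 and 9.47 in OVX and at 9.95, 9.71 and 9.51 in E2 libraries. The groups overlapped, and the difference was 0.10 ± 0.11 with a 95% interval of -0.15 to 0.34 (limma adjusted p = 0.887). Mbp ranked 119th of 13886 genes by mean log2 CPM and made up 32.0% to 36.1% of the summed CPM of the members in each library. Mobp, a second basic protein of compact myelin, was at 7.98, 8.21 and 7.75 in OVX and at 8.56, 8.19 and 8.15 in E2 libraries. OVX library 2 lay above 2 of the E2 libraries, and the difference was 0.32 ± 0.11 (limma adjusted p = 0.413), or 0.19 without E2 library 1 and 0.44 without OVX library 2. Gjb1, the gap junction protein connexin 32, had the widest range of any member, 1.34, at a low level: 1.82, 2.20 and 0.98 in OVX and 1.86, 2.33 and 1.50 in E2 libraries. The remaining 9 (Cnp, Mag, Mal, Tspan2, Cldn11, Hapln2, Mog, Ermn and Opalin) had mean log2 CPM from 3.01 for Opalin to 7.26 for Cnp, and differences from -0.01 for Mag to 0.25 for Mal. Cnp shares 154 exonic bases with Dnajc7 and Ermn shares 237 with Galnt5, which the counting could not separate by strand.

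Enzymes of lipid synthesis and metabolism overlapped between groups as well. Ptgds, which makes prostaglandin D2, was at 7.11, 8.08 and 7.61 in OVX and at 8.03, 7.43 and 7.90 in E2 libraries, and its lowest and highest libraries were both OVX. Qdpr, which recycles tetrahydrobiopterin, was at 6.46, 6.60 and 6.32 in OVX and at 6.63, 6.65 and 6.50 in E2 libraries, a difference of 0.13 ± 0.08 (limma adjusted p = 0.699). Ugt8a, which makes the galactolipid of myelin, was at 3.39, 4.31 and 3.26 in OVX and at 4.01, 3.93 and 3.67 in E2 libraries. Its OVX library 2 exceeded every E2 library, while the other OVX libraries lay below them all. Car2, Fa2h and Aspa, which encode carbonic anhydrase 2, a fatty acid hydroxylase and an enzyme that splits N-acetylaspartate, differed by -0.01, 0.07 and 0.14.

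Of the 5 listed genes for transport, signalling and other roles, 3 had the lower mean with E2. Trf, the iron carrier transferrin, was at 6.22, 6.56 and 6.13 in OVX and at 6.62, 6.04 and 6.04 in E2 libraries. Gm20425 covers 2108 of the 3320 exonic bases of Trf, so the split of reads between the 2 gene models is uncertain. Gsn, the actin-severing protein gelsolin, was at 5.70, 6.32 and 5.64 in OVX and at 5.95, 5.57 and 5.62 in E2 libraries, a difference of -0.18 ± 0.15. OVX library 2 stood highest for Gsn, above E2 library 1. Tmem125, a membrane protein, was the lowest member, at 0.62, 1.60 and 1.61 in OVX and at 1.07, 0.76 and 1.18 in E2 libraries. Lpar1, a receptor for lysophosphatidic acid, and Evi2a differed by 0.04 and 0.25, and Evi2a shares 442 exonic bases with Evi2.

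**Figure D3:**
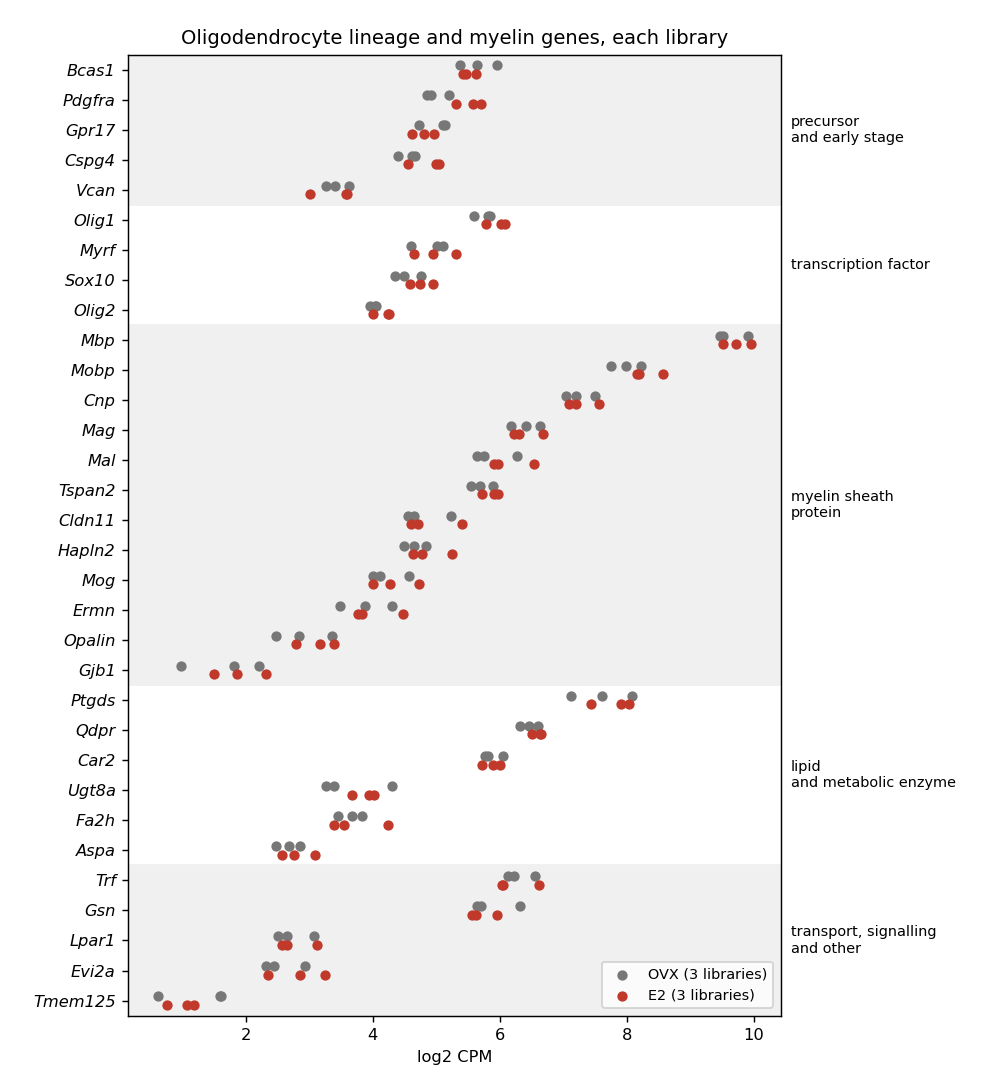
Log2 CPM (x axis) of each listed member (y axis, grouped by role and ordered by mean) in the 3 OVX (grey) and 3 E2 (red) libraries. The red points lie wholly to the right of the grey points for Pdgfra alone of the 32 genes.

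Most members were high in the same pair of libraries, 1 from each treatment. OVX library 2 was the highest OVX library for 29 of 32 members and E2 library 1 the highest E2 library for 27, and both held for 26 of 32, against 13.6% of all genes. E2 library 1 was the highest of all 6 for 21 members (65.6%, against 17.4% of all genes), and OVX library 3 the lowest for 17 (53.1%, against 17.5%). In the sheath group E2 library 1 was the highest for 11 of 12 genes, Gjb1 being the exception, and OVX library 3 the lowest for 9. The summed CPM of the members was 2130, 2765 and 2046 in OVX libraries 1 to 3 and 2937, 2322 and 2281 in E2 libraries 1 to 3. Members lay above the other libraries of their group by a median of 0.36 in OVX library 2 and of 0.36 in E2 library 1. In the precursor group OVX library 2 was the highest OVX library for 3 of 5 genes and E2 library 1 the highest E2 library for 4. In the sheath group these counts were 12 and 11 of 12. OVX library 2 and E2 library 1 were the 2 highest of all 6 libraries for 0 of 5 precursor and 10 of 12 sheath genes, against 8.85% of all genes. That contrast between groups of genes was not tested.

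**Figure D4:**
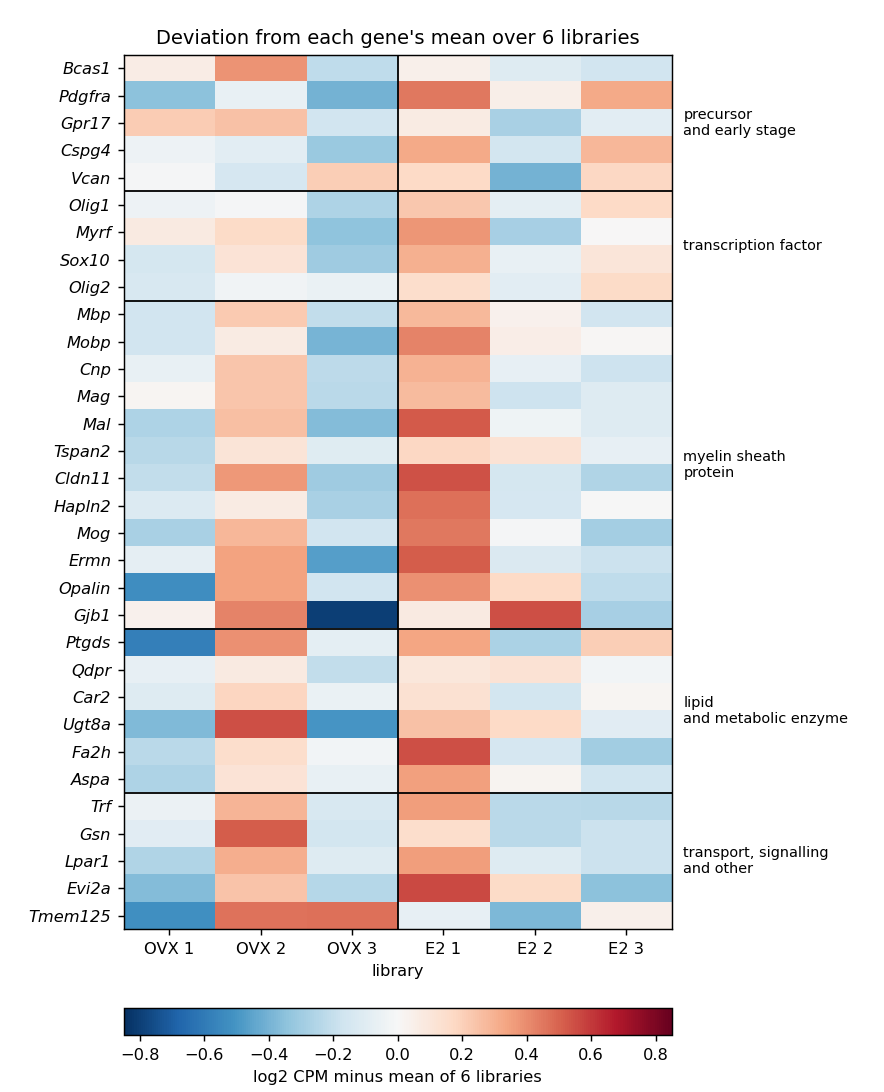
Deviation of log2 CPM from the mean of the 6 libraries (colour) for each listed member (rows, grouped by role) in each library (columns). Columns OVX 2 and E2 1 are mostly red and column OVX 3 mostly blue. Among the exceptions are Pdgfra, Cspg4 and Vcan in OVX 2, and Tmem125 and Vcan in OVX 3.

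The treatment difference of the members depended on the library left out. Without E2 library 1 the median difference of the members was -0.01, and without OVX library 2 it was 0.24. Without OVX library 2 the E2 libraries were higher without overlap for 7 members (Qdpr, Mal, Tspan2, Pdgfra, Mobp, Ugt8a and Sox10), where 13.6% of all genes were. Without E2 library 1 they were lower without overlap for 2 members, Gsn and Trf, where 10.8% of all genes were. With both libraries left out, a choice made after seeing the data, the median was 0.12, Pdgfra was higher by 0.56 (limma adjusted p = 0.0895), and 0 members passed.

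Other gene lists of the lineage and of other cells were read in the same 6 libraries. Of 40 other oligodendrocyte genes, all listed, 0 passed the test. The higher mean was with E2 for 25 (62.5%, against 51.1% of all genes) and with OVX for 15, and E2 library 1 was the highest for 25. Tppp, a tubulin-binding protein that neurons make too, was at 9.23, 9.24 and 9.28 in OVX and at 9.21, 9.17 and 9.10 in E2 libraries. OVX library 2 and E2 library 1 lay close to the others. Every E2 library lay just below every OVX library (difference -0.09 ± 0.05, limma adjusted p = 0.700). Of the 40 genes, 1 was higher and 2, Tppp included, were lower without overlap, against 6.85% and 6.82% of all genes. Of 16 axonal partners of the sheath, such as the paranodal Cntn1 and Cntnap1, 0 passed and 13 had the lower mean with E2, with a median difference of -0.08. Without overlap, 3 of the 16 were lower (Cadm3, Nrcam and Scn8a) and 1 was higher (Cntnap2), against 6.82% and 6.85% of all genes.

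Markers of other non-neuronal cells were mostly high in OVX library 2 and, apart from the choroid plexus list, less regularly in E2 library 1. OVX library 2 was the highest OVX library for 9 of 10 astrocyte, 8 of 10 microglial, 11 of 11 endothelial and mural, 6 of 7 fibroblast and meningeal and 7 of 7 choroid plexus markers, and for 1 of 10 neuronal markers, beside 4589 of all 13886 genes. E2 library 1 was the highest E2 library for 5, 5, 5, 4 and 7 markers of these lists in the same order and for 0 of 10 neuronal markers, beside 4694 of all 13886 genes. This pair of libraries was the 2 highest of all 6 for 3, 3, 5, 4 and 6 markers in that order and for 0 neuronal markers. The same held for 21 of 32 members and for 8.85% of all genes. Among the E2 libraries, the median deviation of the astrocyte list was 0.14 in both library 1 and library 3, and that of the microglial list was 0.023 in library 1 and 0.043 in library 3. All 10 astrocyte markers had the higher mean with E2, with a median difference of 0.13, the same to 2 decimals as that of the members. Of these, 2, Aldoc and Gjb6, named after their values were seen, were higher without overlap, against 6.85% of all genes. All 7 choroid plexus markers had the lower mean with E2, with a median difference of -0.61. None of the astrocyte or choroid plexus markers passed the test. The choroid plexus list, led by Ttr, was lowest in E2 library 2 for 7 of 7 genes, with a summed CPM of 396 there and of 634 to 1084 elsewhere. The 4 listed erythroid markers had a different order, with summed CPM of 121 to 228 in OVX and 280 to 447 in E2 libraries. The 10 neuronal markers moved least, with median deviations between -0.04 and 0.05. The 6 genes listed as forebrain excitatory neuron markers, led by Slc17a7, all had the lower mean with E2. They were lower by a median of 0.48 on the log2 scale, and 0 passed. Slc17a7 alone was lower without overlap, 1 of 6, against 6.82% of all genes. Whether their RNA came from areas other than the MeA was not tested. The paper names Vglut1, which is Slc17a7, among the genes expressed in its MeA Kiss1 data. Among these lists the genes past the test were Col1a1, Hba-a1 and Hba-a2. The part of these other cells in the order of the libraries was not tested, and no library of unprecipitated RNA was analysed here.

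**Figure D5:**
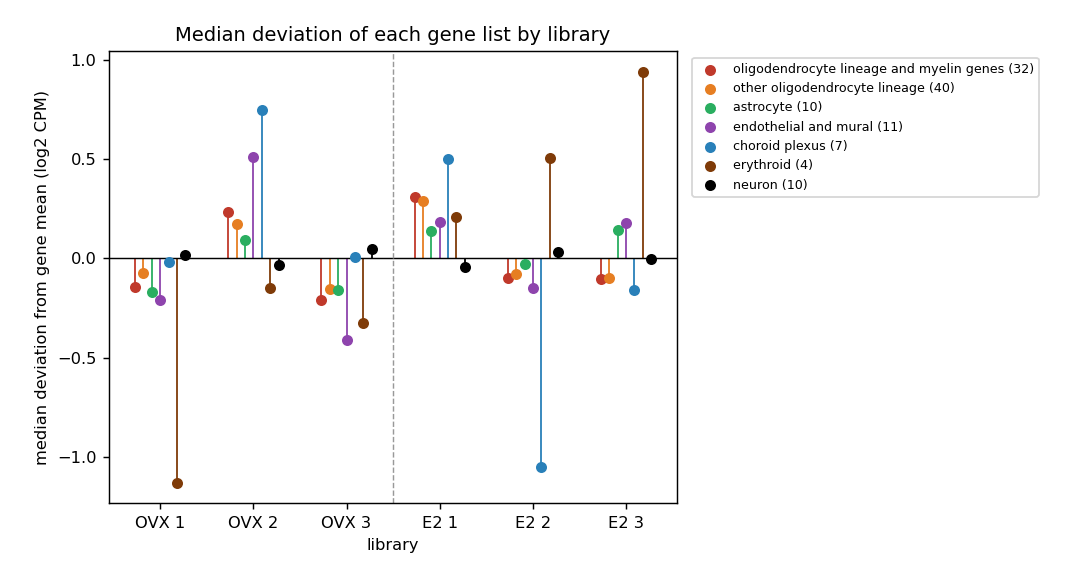
Median deviation from the gene mean (log2 CPM, y axis) of 7 gene lists in each library (x axis), with the number of listed genes in brackets. The members and the other oligodendrocyte genes lie above zero in OVX 2 and E2 1 and below zero in the other 4 libraries, and the neuronal list stays within 0.05 of zero.

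To order the members against each other, CPM was divided by the length of the longest annotated transcript. On that scale Mbp was the highest at 172 CPM per kilobase, followed by Ptgds at 160, Mobp at 87.1, Qdpr at 67.1, Cnp at 53.2, Mag at 35.1, Car2 at 32.9, Trf at 30.4, Olig1 at 27.0 and Mal at 23.8. Mbp and Ptgds, whose levels spread over 0.48 and 0.97 log2 units between libraries, did not differ beyond that spread. Vcan was the lowest at 0.867, and the median member was at 10.4 CPM per kilobase, beside 7.84 for all listed genes, 24.3 for the astrocyte list and 214 for the neuronal list. The order depends on the transcript length: with the median annotated transcript in place of the longest, Mobp was the highest at 503 CPM per kilobase, before Mbp at 458 and Ptgds at 256, and 7 of these 10 genes stayed among the highest 10.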

How the data were processed

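RNA-seq of precipitated, ribosome-bound RNA was analysed for 6 libraries, 3 OVX and 3 E2, grouped by their labels. The authors deposited log2 CPM per gene and library. According to the study's methods, they trimmed reads with Trimmomatic, aligned them with STAR to GRCm38 and quantified genes with RSEM. By the same methods they kept protein-coding genes with a mean CPM over 1 in a group and applied voom. The deposited values are labelled as TMM normalized. The submitters' processing notes list FastQC 0.11.8, Trimmomatic 0.38, STAR 2.6.0a and limma. The kit kept no strand. A second deposited table holds the authors' own fold changes and p-values and was not used.

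E2 was compared with OVX by limma 3.58.1 in R 4.3.3 on the log2 CPM of all 13886 genes, with a mean-variance trend, treatment as the only term and Benjamini-Hochberg adjustment over all genes, two-sided, at a threshold of 0.05. The code was tested on simulated data. Counts were not used here, so no counting intervals are given, and scaled library sizes are estimates. Replicate numbers were not used as pairs: deviations from the group means correlated at -0.02, -0.12 and -0.08 across genes between libraries of the same number. Values per library are printed for the 2 most abundant members of each role, the 3 with the smallest p in each direction, the 3 with the widest range, those past the threshold and those without overlap, and for the 2 most abundant of the other oligodendrocyte genes, 1 of which is not reported here, and marker genes past the threshold. Members, roles and lists were chosen with earlier results of these data known. Gene positions, transcript lengths and shared exons came from GENCODE M21 on GRCm38, and promoter windows from RefSeq. Alternatives were no trend, voom weights on rebuilt counts, median centring, quantile normalization, a filter at a mean log2 CPM of 1, log2 of CPM plus 1, robust moderation, a replicate block and each library left out.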

Additional observations from a re-analysis of the deposited data

How the results depend on the processing

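Under the 8 alternatives that kept all 6 libraries, 0 members passed the threshold. Median centring and quantile normalization, which can change the order of libraries, left Pdgfra as the 1 member higher without overlap and 0 lower. In the fit with the replicate block, 0 members passed, Pdgfra had a limma adjusted p of 0.175, and no call changed. The limma adjusted p of Pdgfra under those 8 alternatives ran from 0.0547 with robust moderation to 0.578 without the trend. In the fit without the trend 0 of all 13886 genes passed, so it says little about the members. With each library left out in turn, 0 to 1 members passed (Pdgfra, without OVX 2 or without E2 2), 1 to 7 were higher without overlap (7 without OVX 2, 4 without E2 2 and 3 without E2 3, where 13.6%, 11.1% and 12.4% of all genes were) and 0 to 2 were lower (1 without OVX 1, 2 without OVX 3 and 2 without E2 1, where 10.7%, 12.8% and 10.8% of all genes were). With OVX 2 and E2 1 both left out, 7 were higher and 2 lower, each against 18.1% of all genes. Among the 15 members with values per library, leaving out 1 library turned the sign of 6 differences, whose ranges were -0.12 to 0.49 for Gjb1, -0.30 to 0.039 for Gsn, -0.016 to 0.23 for Mbp, -0.11 to 0.22 for Myrf, -0.059 to 0.42 for Ptgds and -0.26 to 0.056 for Trf. Without OVX 2 and E2 1 together, Myrf differed by -0.0076. In all, 213 of 225 values for these 15 members kept direction and side of the threshold. Without the trend, with the filter, with robust moderation and with the replicate block the difference itself could not change, only its p. The 225 values also include the unplanned fit without OVX 2 and E2 1. Precision was set by 3 pools a group: all but Pdgfra had an estimated difference under 3 times its standard error.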
